A study of Mus musculus with 8 samples.

Results

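A set of 7 genes reported as targets of the transcription factor FOXP2 (Cntnap2, Srpx2, Mef2c, Met, Disc1, Vldlr and Plaur) was followed in mouse frontal cortex of control and Foxp2 conditional knockout animals. They were chosen by name, as genes reported as FOXP2 targets and tied to speech or to synapse formation. Earlier results of these data were known when the choice was made. All 7 had a row among the 17836 genes of the D1Tom count table, and 6 of the 7, all but Srpx2, had a row among the 15769 genes of the GTE table; D1Tom and GTE name the 2 cell sorts. Cells came from frontal isocortex at postnatal day 7 and were sorted for 1 of 2 fluorescent reporters before single-cell RNA sequencing. The Drd1a-tdTomato reporter, called D1Tom here, is a bacterial artificial chromosome transgene driven by dopamine D1 receptor sequences, and the golli-τ-eGFP reporter, called GTE here, is driven by golli promoter sequences of the myelin basic protein gene. Every mouse carried Foxp2 flox/flox alleles and 1 reporter. The controls had no Cre, and the conditional knockouts (cKO) had Emx1-Cre, which recombines in the lineage that gives cortical excitatory neurons and cortical glia, while cortical interneurons, microglia and endothelium arise outside it. For each reporter there were 2 libraries per genotype. Those of D1Tom came from females except cKO 2, which came from a male, and the GTE libraries came from males except cKO 2, which came from a female, so sex and genotype are partly mixed. Nothing in the labels says how many animals a library held, so p-values measure only the spread between libraries.

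FOXP2 is a forkhead transcription factor that mostly lowers the activity of the genes it binds, and variants in the human gene cause a speech and language disorder. In the cortex Foxp2 is known mainly from deep-layer neurons, above all the corticothalamic neurons of layer 6. Most of its reported targets listed here act at the cell surface and at the synapse: CNTNAP2 clusters potassium channels along axons, SRPX2 is a secreted protein that promotes synapse formation, PLAUR is the receptor of urokinase and binds SRPX2, MET is the receptor of hepatocyte growth factor, VLDLR is a receptor of reelin, DISC1 is a scaffold protein, and MEF2C is a transcription factor that limits synapse number. On the plus strand of GRCm38, in GENCODE M21, Met lies at 6:17463800-17573980, Plaur at 7:24462484-24475968, Disc1 at 8:125054195-125261858, Vldlr at 19:27216484-27254231 and Srpx2 at X:133908426-133932446.

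The D1Tom libraries held 2395 to 3206 cells with a median of 7198 to 12815 counts per cell, and the GTE libraries held 1440 to 3948 cells with a median of 1085.5 to 2982. GTE cKO 1 stood apart, with the fewest cells, the highest median, and 36.5% astrocyte-like cells against 2.58 to 8.99% in the other 3 GTE libraries. Neuron-like cells, named from marker genes, were 27.8 to 47.1% of the D1Tom cells but only 0.171 to 2.57% of the GTE cells, where large clusters stayed unnamed. Libraries of a sort shared 4 to 27 cell barcodes, at most 0.925% of the smaller library. Values are CPM, the summed counts of a gene scaled to the same total in every library, and log2 fold changes set cKO against control with edgeR's quasi-likelihood test, with Benjamini-Hochberg adjustment over all genes tested and a threshold of 0.05. Counts were taken at the 3′ end of transcripts, so levels are compared within a gene and not between genes.

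Foxp2 itself stood at 36.3 and 39.1 CPM in the D1Tom control 1 and control 2 libraries, and at 26.5 and 19.4 CPM in cKO 1 and cKO 2. Both cKO libraries were below both controls, with a log2 fold change of -0.67 (SE 0.16, edgeR adjusted p = 0.998), which did not pass the test. In layer 6 corticothalamic-like cells, where it was highest, Foxp2 had control levels of 330 and 314 CPM against cKO levels of 98.0 and 93.9 CPM. There the log2 fold change of -1.74 (SE 0.21) passed the edgeR test (adjusted p = 0.0372), as did 0.0108% of genes tested there, and 2 alternatives lost the call. With the highest doublet scores left out it was -1.71 (edgeR adjusted p = 0.0514). With cells assigned one by one Foxp2 was at 180 and 123 CPM for control against 42.0 and 27.7 CPM for cKO, and the log2 fold change was -2.07 (edgeR adjusted p = 0.999). In GTE the groups overlapped, with control levels of 9.52 and 46.9 CPM and cKO levels of 25.4 and 7.43 CPM. Reads at the 3′ end need not lie in the deleted part of Foxp2, whose position the labels do not give, so these levels do not measure the deletion.

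Over all D1Tom cells none of the 7 genes passed the test. Of the 6 that had enough counts to be tested, 0 passed at an adjusted p under 0.05, as did 0% of the 14508 genes (all-gene share), and 0 had an unadjusted edgeR p under 0.05, against 2.21% of all genes. DESeq2 also called none of the 7 after adjustment, against 0.144% of its genes, and gave 1, Mef2c, an unadjusted p under 0.05, against 1.84%. In 4 of the 6 (Mef2c, Met, Disc1 and Plaur) both cKO libraries lay below both controls, an arrangement seen in 13.7% of all genes tested. The median log2 fold change of the 6 was -0.47, against -0.01 over all genes tested. With the batch (the replicate number, which the labels tie to a day of preparation) as a block, 3 of the 6 had an unadjusted edgeR p under 0.05 (Disc1 0.0192, Mef2c 0.0306 and Plaur 0.0368), with adjusted p of 0.459, 0.498 and 0.523. The same block put 9.25% of all genes under that unadjusted p. Among neuron-like cells alone 0 of the genes passed, as did 0% of all genes, with -0.50 for Mef2c (edgeR unadjusted p = 0.0501) and -1.09 for Disc1 (edgeR unadjusted p = 0.0561). The share of neurons also differed between the libraries, as given beside Mef2c, and in summed counts fewer cells of a type and less RNA per cell cannot be told apart.

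**Figure D1:**
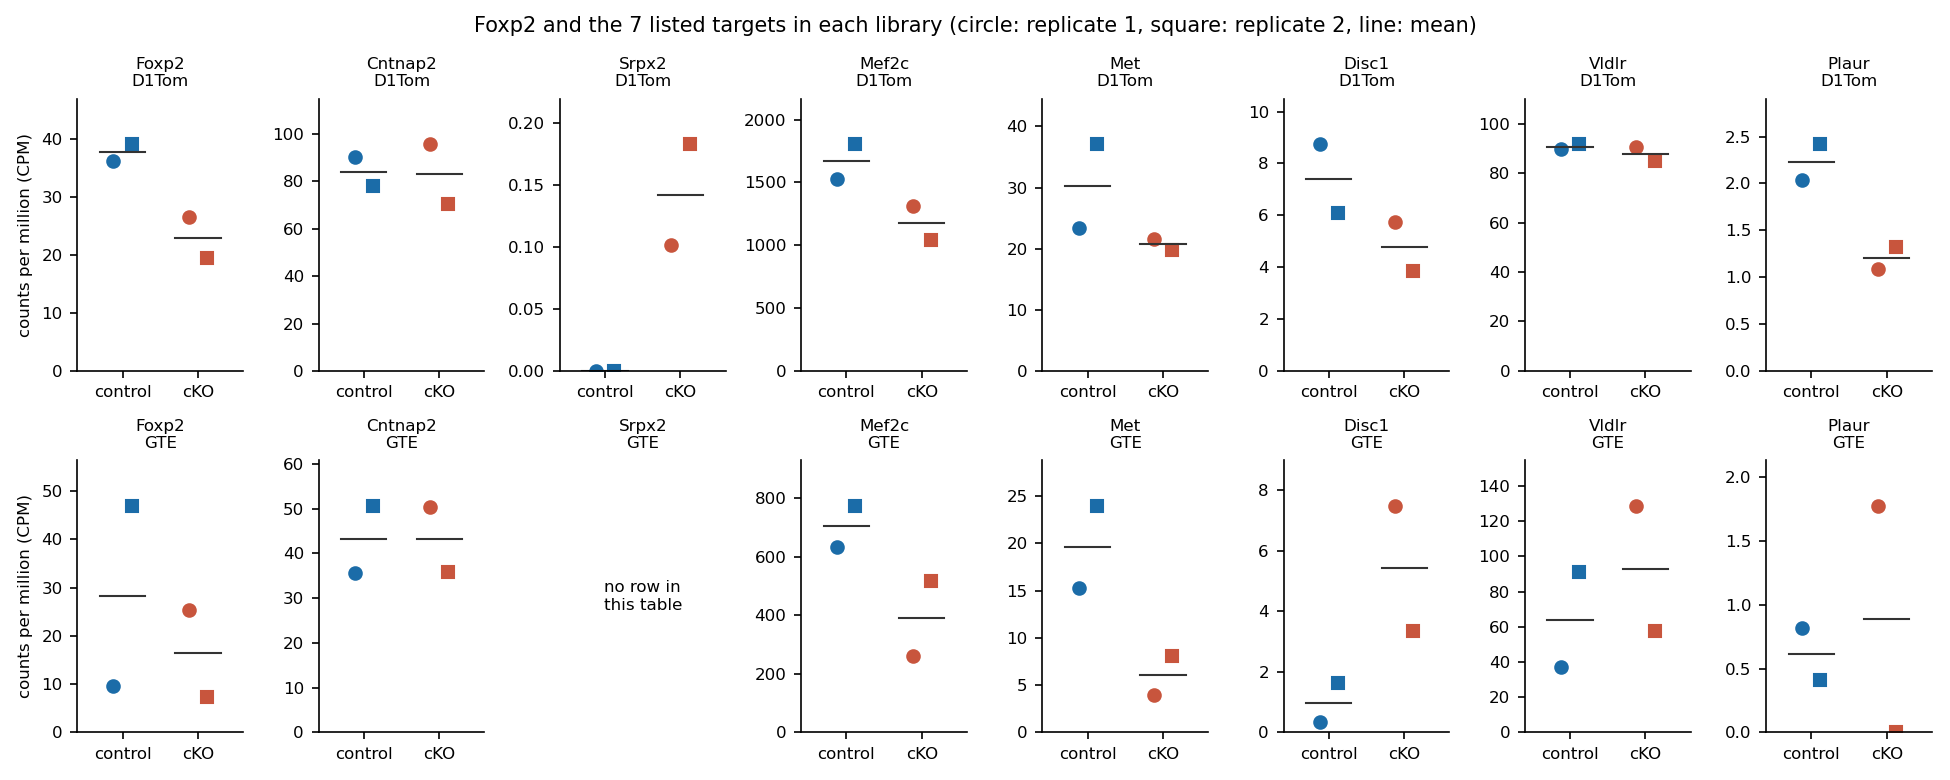
Level of Foxp2 and of the 7 reported targets in each library, in CPM on linear axes that start at 0, with D1Tom above and GTE below. Circles are replicate 1, squares replicate 2 and lines group means. In D1Tom both cKO points lie below both control points for Foxp2, Mef2c, Met, Disc1 and Plaur, and in GTE Disc1 has the opposite arrangement.

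Mef2c, whose product limits synapse number, was highest in excitatory neuron-like cells. Its whole-library D1Tom levels were 1530 CPM (control 1), 1803 CPM (control 2), 1314 CPM (cKO 1) and 1043 CPM (cKO 2). Both cKO libraries were lower than both controls, and the log2 fold change of -0.45 (SE 0.22, edgeR unadjusted p = 0.0941, adjusted p = 0.998) did not pass the test. Within batches the log2 ratio of the CPM was -0.220 for the first pair and -0.790 for the second.

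By cell type, Mef2c was highest in upper layer-like neurons, with control levels of 4000 and 4620 CPM and cKO levels of 4332 and 4166 CPM. These values overlapped between genotypes, with a log2 fold change of -0.08 (SE 0.23, edgeR adjusted p = 0.970). With cells assigned to the class one by one from their markers the groups did not overlap. They stood at 3129 and 3028 CPM for control against 2943 and 1815 CPM for cKO, and the log2 fold change was -0.36 (SE 0.29, edgeR adjusted p = 0.999). That assignment compared neuron markers only, over all cells of 500 or more counts, so other cells could enter the class. It held 441, 498, 322 and 378 cells (control 1, control 2, cKO 1, cKO 2), against 644, 337, 396 and 190 upper layer-like cells. The part of this make-up in the difference was not tested. The upper layer-like class joins 2 clusters that the libraries filled unequally. A cluster with a median of 3119 counts per cell held 378, 68, 303 and 132 of its cells (control 1, control 2, cKO 1, cKO 2), and one with a median of 20650 held 266, 269, 93 and 58, so levels within the class also compare different clusters. Layer 5 pyramidal tract-like neurons followed, with control levels of 2549 and 2678 CPM and cKO levels of 2386 and 2333 CPM, and layer 6 corticothalamic-like neurons held less, at 973 and 1053 against 862 and 1048. The order upper layer-like, then layer 5-like, then layer 6-like was the same in all 4 D1Tom libraries. An unnamed cluster with Trhr, Tshz2 and Fezf2 among its leading genes lay at 1829 to 2124 CPM. Upper layer-like cells gave 39.6% of all Mef2c counts of the sort and the other excitatory neuron-like cells (a general class) 20.9%.

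The mix of cells also differed between the libraries, and its part in the Mef2c difference was not tested. Excitatory neuron-like cells gave 43.1 and 42.9% of the counts in the controls against 32.5 and 19.7% in the cKO libraries, and upper layer-like cells gave 21.0 and 13.8% against 12.1 and 4.79%. Neuroblast-like cells moved the other way, from 2.31 and 1.84% of the cells in the controls to 9.64 and 7.43% in the cKO libraries. The 6 general markers of excitatory neurons summed to 826 and 814 CPM for control and 663 and 470 CPM for cKO, with none of the 6 at 0. When every library was given the controls' mean mix of cell types, Mef2c had control levels of 1465 and 1871 CPM and cKO levels of 1566 and 1619 CPM. The groups then overlapped, and the log2 ratio was -0.07 in place of -0.50 from the plain CPM. This calculation was chosen after the data were seen and carries no test. The fit on neuron-like cells alone gave -0.50, against -0.45 over all cells. It does not hold the mix of neuron types constant. Neuroblast-like cells, for example, gave 1.57 and 1.55% of all counts in the controls against 8.35 and 10.5% in the cKO libraries. In the classes assigned cell by cell both cKO libraries were below both controls in upper layer and layer 5 pyramidal tract (-0.28) cells. The same held in layer 6 corticothalamic (-0.31), MGE (medial ganglionic eminence) interneuron (-0.26) and neuroblast cells (-0.48). None of these passed the edgeR test, and the share of all genes with this arrangement there was not computed. Cells that were not neuron-like could also enter these classes. In Cajal-Retzius cells, also fitted, the groups overlapped, at 118 and 611 CPM for control against 70.1 and 327 CPM for cKO.

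Within cell types Mef2c was tested in 14 D1Tom types and passed in 0. The fitted value was below 0 in 13 of the 14, between -0.65 and 0.01. All 14 types come from the same 4 libraries, so these signs are not independent. The share of all genes with such a count was not computed. The smallest unadjusted edgeR p was in neuroblast-like cells, where Mef2c had control levels of 700 and 870 CPM and cKO levels of 417 and 560 CPM. That difference had a log2 fold change of -0.65 (SE 0.32, edgeR unadjusted p = 0.0754, adjusted p = 0.666). Both cKO libraries were below both controls there, as in 1878 of the 10424 genes tested in this class. The neuroblast-like class joins a cluster led by Igfbpl1 and Sp9, with 29, 32, 207 and 222 cells (control 1, control 2, cKO 1, cKO 2), and one with Adarb2 and Prox1 among its leading genes, with 45, 12, 64 and 7, so this difference compares different clusters in part. In all 5 fitted types that were not neuron-like, both replicate 2 libraries held more Mef2c than both replicate 1 libraries whatever the genotype. Astrocyte-like cells, for example, were at 192 CPM in control 1 and 250 in cKO 1 against 431 in control 2 and 370 in cKO 2. Cajal-Retzius-like cells, a neuron-like type, showed the same split, with 116 and 63.4 CPM in replicate 1 and 589 and 384 in replicate 2. The part of free RNA in these levels was not tested.

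**Figure D2:**
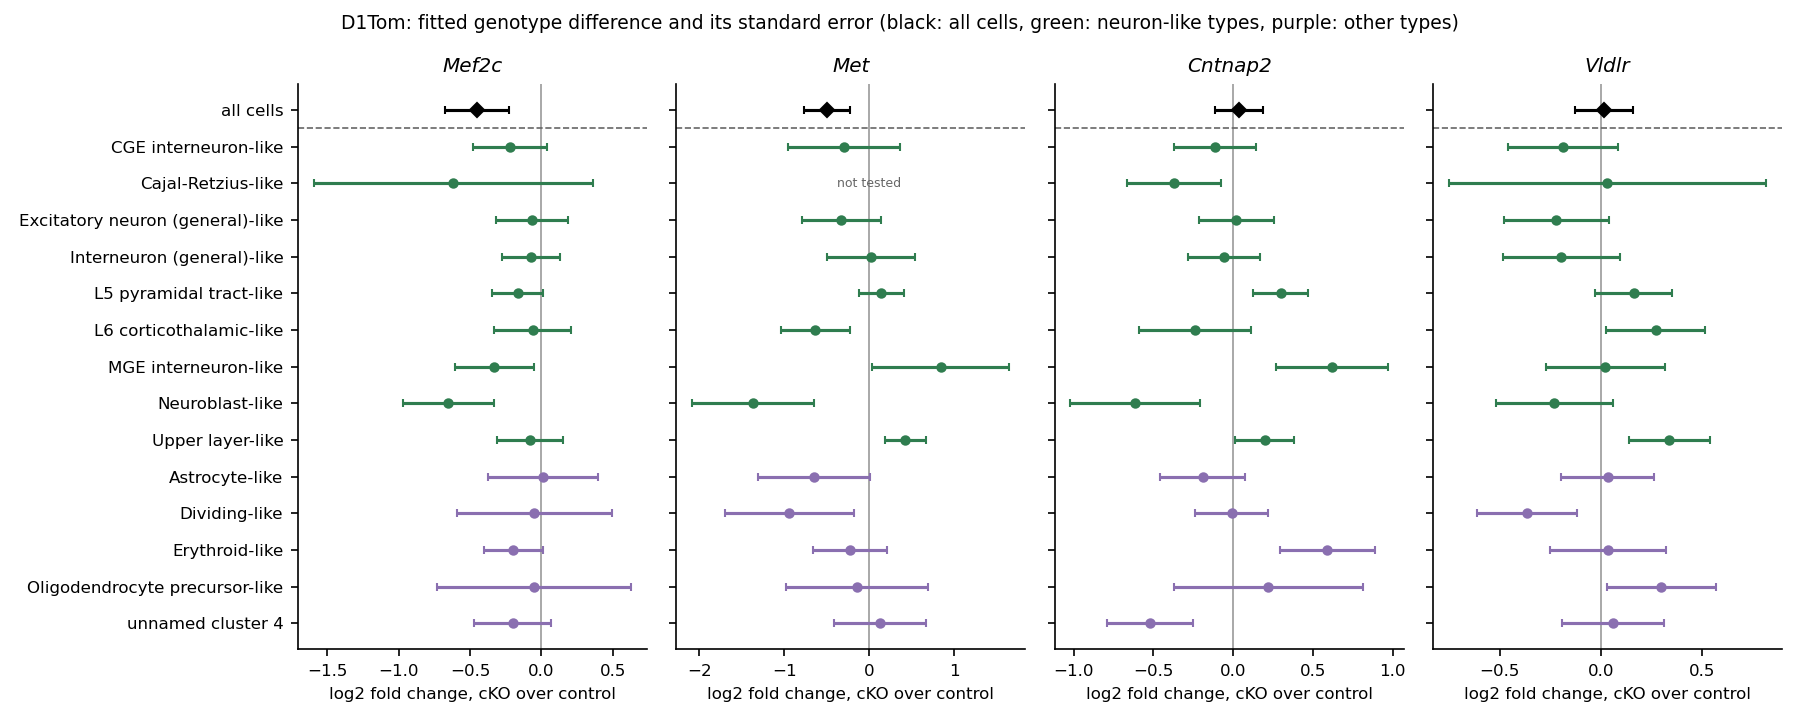
Fitted log2 fold change of cKO over control with its standard error, for Mef2c, Met, Cntnap2 and Vldlr, over all D1Tom cells (black diamonds) and within each fitted cell type (green for neuron-like, purple for other types). Mef2c lies near 0 in upper layer-like cells, at -0.08, and at -0.45 over all cells.

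A Mef2c count was found in 96.9% (control 1) and 100% (control 2) of upper layer-like cells, and in 93.7% (cKO 1) and 98.4% (cKO 2). After thinning each cell to 1000 counts, which left out 6, 0, 5 and 2 cells, the shares were 88.1% (exact 95% binomial interval 85.3 to 90.5%), 95.0% (92.0 to 97.0%), 82.9% (78.8 to 86.5%) and 92.6% (87.8 to 95.9%). Astrocyte-like cells, which gave a low level, had 15.6, 29.8, 23.9 and 29.0% in the same order, and 57.7, 86.5, 63.4 and 80.9% unthinned. Median counts per cell were 9435 in the control and 3680 in the cKO upper layer-like cells, and 8322 and 6530 in the astrocyte-like cells. Here too the share was lower in replicate 1 than in replicate 2 in both genotypes and both cell types. The ratio of values of 2 to values of 1 in the deposited counts also split by replicate number. It was 1.69 and 1.54 in control 1 and cKO 1 against 0.723 and 0.307 in control 2 and cKO 2. Its part in the shares was not tested. Thinning and intervals treat each count as a molecule, which these counts need not be. Intervals cover counting error only.

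RefSeq lists 3 starts for Mef2c on chromosome 13 (the gene spans 13:83504034-83667080 on the plus strand of GRCm38), and windows of 300 bases around starts were searched for motifs reported for FOXP proteins. On either strand, 5.6% of 32851 windows of mouse genes held the letters TATTTAT, while 3.63% held the letters TATTTGT and 11% the letters CAAATT; no one of the 3 contains another. Of the 11 windows of the 7 genes, 2 held a match, in both cases CAAATT on the minus strand, and 18.1% of all windows held at least 1 of the 3. The first is the window of a Mef2c start at chr13:83523406-83523705 (GRCm38.p6, plus strand), shown because it is 1 of the 2 windows with a match, with the match in capitals 165 bases before the start.
Mef2c: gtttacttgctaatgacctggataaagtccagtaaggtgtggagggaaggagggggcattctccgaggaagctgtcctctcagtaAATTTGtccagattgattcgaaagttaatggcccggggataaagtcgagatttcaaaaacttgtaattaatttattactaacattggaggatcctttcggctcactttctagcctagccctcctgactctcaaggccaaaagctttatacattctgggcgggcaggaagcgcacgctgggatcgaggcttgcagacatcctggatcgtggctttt
The second is the Srpx2 window at chrX:133908175-133908474 (GRCm38.p6, plus strand), with the match 176 bases before the start.
Srpx2: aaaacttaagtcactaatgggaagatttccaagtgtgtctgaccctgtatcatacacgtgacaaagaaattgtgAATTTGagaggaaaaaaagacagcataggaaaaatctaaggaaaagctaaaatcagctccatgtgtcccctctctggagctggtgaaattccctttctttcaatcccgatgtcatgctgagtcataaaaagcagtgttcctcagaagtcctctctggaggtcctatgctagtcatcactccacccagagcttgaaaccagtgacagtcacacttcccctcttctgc
The windows of Cntnap2, Met, Disc1, Vldlr and Plaur held none of the 3 motifs. A match is a stretch of letters and not a measured binding site, and these data hold no measurement of binding.

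Met, the receptor of hepatocyte growth factor, was like Mef2c highest in upper layer-like neurons. Its whole-library D1Tom levels were 23.3 CPM (control 1), 37.1 CPM (control 2), 21.6 CPM (cKO 1) and 19.8 CPM (cKO 2). Control 2 was high and the other 3 libraries lay close together. The log2 fold change was -0.49 (SE 0.27, edgeR unadjusted p = 0.119, adjusted p = 0.998), and without control 2 it was -0.06.

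In upper layer-like neurons Met had control levels of 61.7 and 83.1 CPM and cKO levels of 84.5 and 120 CPM. Here both cKO libraries were above both controls, as in 2500 of the 11558 genes tested in this class. The log2 fold change of 0.42 (SE 0.24, edgeR unadjusted p = 0.111, adjusted p = 0.821) did not pass the test, and the clusters of the class were filled unequally as given beside Mef2c. When cells were assigned to upper layer-like one by one from their markers, the value was -0.10. In layer 6 corticothalamic-like cells, the type with the most Foxp2, Met had control levels of 36.9 and 21.4 CPM and cKO levels of 19.6 and 18.5 CPM, with a log2 fold change of -0.63 (SE 0.40, edgeR adjusted p = 0.999). The smallest unadjusted edgeR p was again in neuroblast-like cells, whose clusters differ as given beside Mef2c. Met had control levels of 10.5 and 16.2 CPM and cKO levels of 2.84 and 6.96 CPM there, a log2 fold change of -1.37 (SE 0.72, edgeR unadjusted p = 0.0945, adjusted p = 0.697). In this class 1878 of the 10424 genes tested likewise had both cKO libraries below both controls. With the controls' mean mix of cell types, Met had control levels of 21.6 and 36.4 CPM and cKO levels of 27.1 and 36.8 CPM, where the groups overlapped, and the log2 ratio was 0.14 in place of -0.54.

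**Figure D3:**
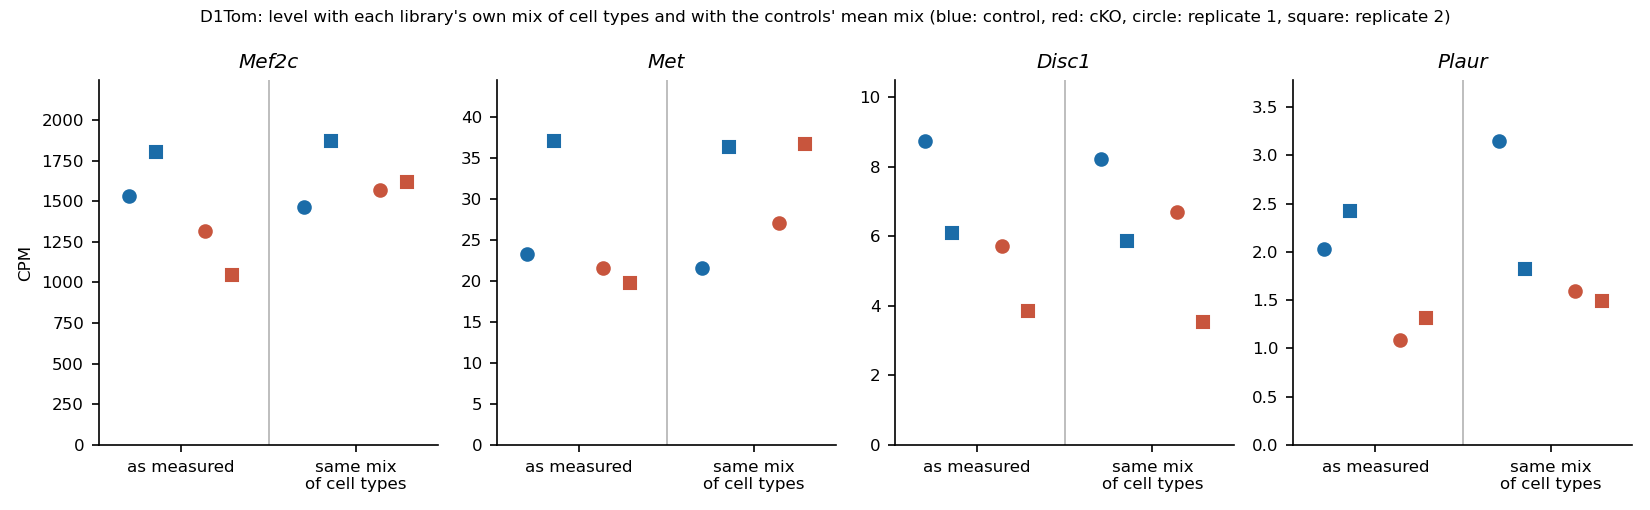
Mef2c, Met, Disc1 and Plaur in the 4 D1Tom libraries in CPM, as measured (left of the grey line) and with every library given the mean mix of cell types of the controls (right). Blue is control and red cKO, circles replicate 1 and squares replicate 2. The genotypes overlap for Mef2c, Met and Disc1 on the right, and both cKO libraries stay below both controls for Plaur.

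Cntnap2, the neurexin-family gene of axonal potassium channel clusters, did not differ in a fixed direction. It spans 6:45059357-47304213 on the plus strand of GRCm38, and 28 annotated genes overlap it, none of them sharing exonic bases with it. Its whole-library D1Tom levels were 90.1 CPM (control 1), 77.9 CPM (control 2), 95.7 CPM (cKO 1) and 70.3 CPM (cKO 2). The groups overlapped, with a log2 fold change of 0.04 (SE 0.15, edgeR adjusted p = 0.998).

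The level of Cntnap2 followed another axis than that of Mef2c. It was highest in Cajal-Retzius-like cells, the reelin neurons of layer 1, with control levels of 396 and 316 CPM and cKO levels of 325 and 223 CPM. The general interneuron-like class was next, with control levels of 339 and 287 CPM and cKO levels of 353 and 241 CPM, and overlapped with the Cajal-Retzius-like cells. Interneuron-like cells of the CGE (caudal ganglionic eminence) followed with control levels of 288 and 185 CPM and cKO levels of 230 and 207 CPM. Upper layer-like neurons, where Mef2c was highest, held 60.6 and 49.9 CPM of Cntnap2 for control and 73.8 and 56.5 CPM for cKO. Endothelial-like cells held 10.1 to 19.5 CPM. In 6 of 9 fitted neuron-like types both replicate 2 libraries were below both replicate 1 libraries, whatever the genotype.

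Of the Cajal-Retzius-like control cells 92.6% (112 of 121) had a Cntnap2 count, and 90.9% (90 of 99) of those from cKO libraries did. Thinned to 1000 counts the shares were 29.8% (exact 95% interval 21.8 to 38.7%) and 29.3% (20.6 to 39.3%). In endothelial-like cells the unthinned shares were 17.8% of 174 and 27.6% of 105 cells, and the thinned shares 1.1 and 2.9%. Median counts per cell were 15238 and 13970 in the Cajal-Retzius-like cells and 21222 and 14312 in the endothelial-like cells. In the fit the difference in Cajal-Retzius-like cells was -0.37 (SE 0.29, edgeR adjusted p = 1.00). The smallest unadjusted edgeR p for Cntnap2 was in erythroid-like cells, a cluster led by haemoglobin and mitochondrial transcripts, with control levels of 30.2 and 47.3 CPM and cKO levels of 51.4 and 58.3 CPM (log2 0.59, SE 0.30, unadjusted p = 0.0635, adjusted p = 1.00).

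**Figure D4:**
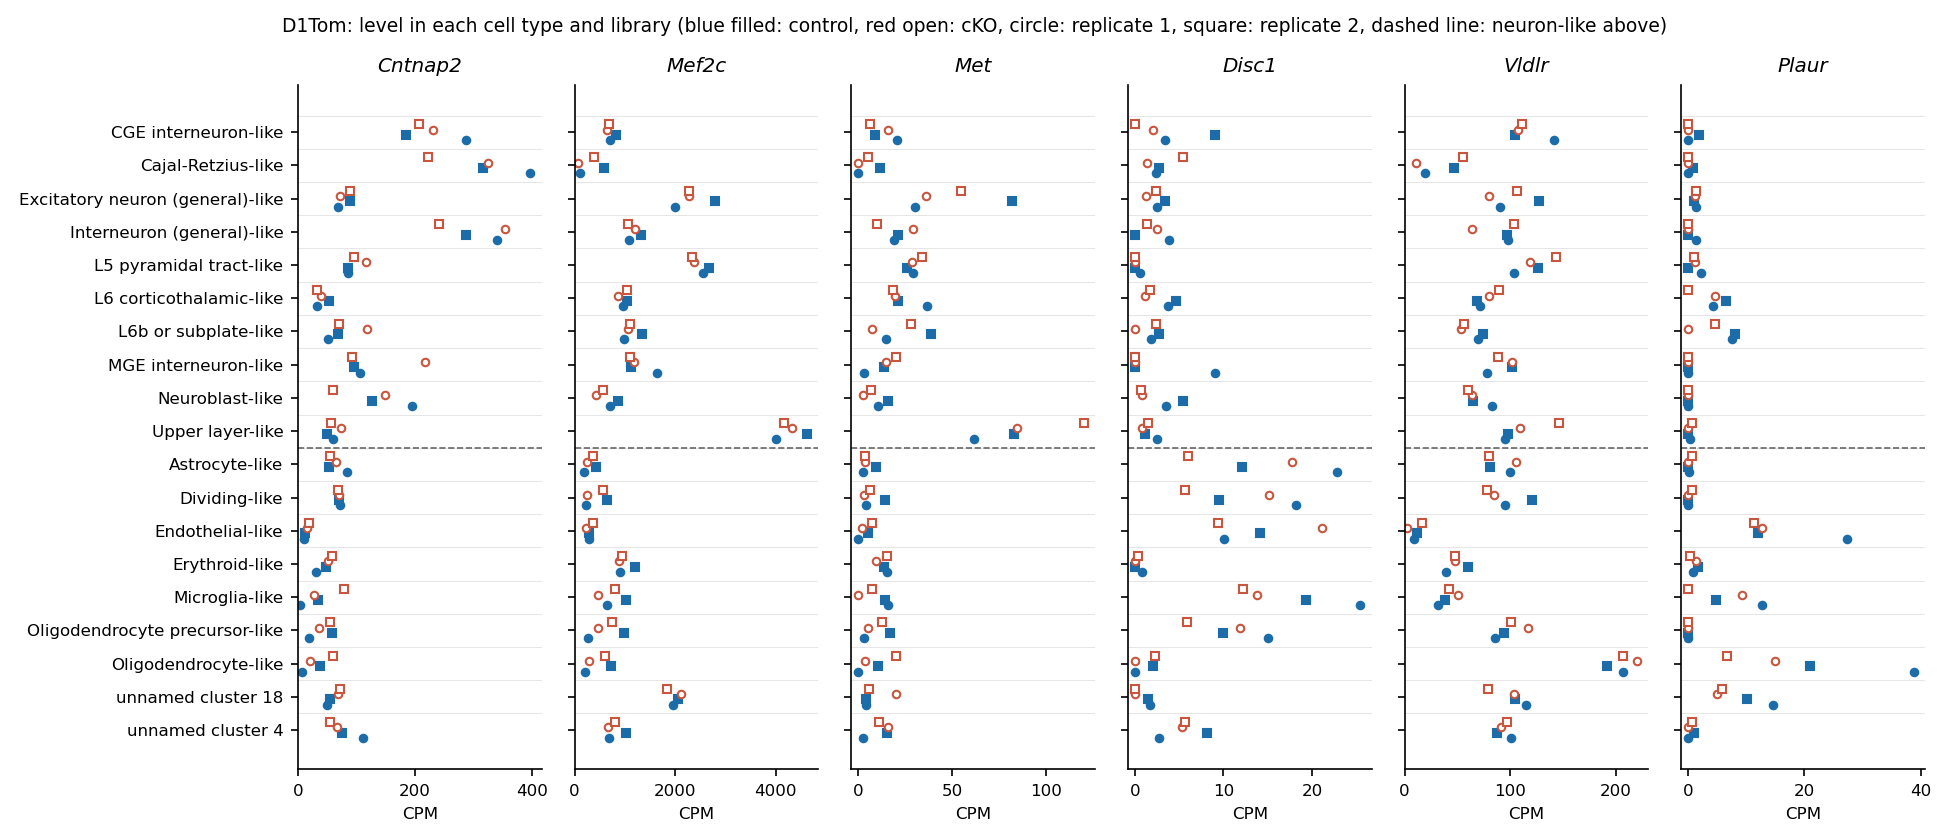
Level of 6 of the 7 genes in each D1Tom cell type of at least 50 cells, in CPM on linear axes, with neuron-like types above the dashed line. Blue filled points are control and red open points cKO libraries, circles replicate 1 and squares replicate 2. Mef2c and Met are highest in upper layer-like cells, Cntnap2 in interneuron-like cells and Cajal-Retzius-like cells, while Disc1 and Plaur are highest mostly below the line. Unnamed cluster 18, in which 4 layer 6 corticothalamic markers were at 2-fold or more, also lies below the line.

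Vldlr, which takes up the reelin signal together with the ApoE receptor 2 encoded by Lrp8, varied little between the D1Tom libraries. Its whole-library D1Tom levels were 89.7 CPM (control 1), 91.7 CPM (control 2), 90.5 CPM (cKO 1) and 85.0 CPM (cKO 2). The groups overlapped, with a log2 fold change of 0.02 (SE 0.14, edgeR adjusted p = 0.998). By cell type it was highest in oligodendrocyte-like cells, with control levels of 207 and 191 CPM and cKO levels of 220 and 207 CPM, a type with too few cells to be fitted. Among neuron-like types it was highest in CGE interneuron-like cells, with control levels of 141 and 104 CPM and cKO levels of 107 and 111 CPM. This rank depended on how types were drawn. Among neuron types of at least 30 cells in each library, layer 5 pyramidal tract cells led under 2 alternatives. Their control mean was 117.5 CPM with clusters at resolution 2 and 100.5 CPM with cells assigned one by one. Most types lay close together, as astrocyte-like cells at 80.1 to 105 CPM, and endothelial-like cells were low at 2.11 to 16.3. Cajal-Retzius-like cells, the source of reelin, held 19.3 and 46.5 CPM for control and 11 and 55.4 CPM for cKO. The smallest unadjusted edgeR p was in upper layer-like neurons, with control levels of 94.6 and 97.7 CPM and cKO levels of 109 and 146 CPM. Both cKO libraries were higher there, as in 2500 of the 11558 genes tested in this class. The log2 fold change was 0.34 (SE 0.20, edgeR unadjusted p = 0.121, adjusted p = 0.821), and it was -0.01 with cells assigned one by one.

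Disc1, the scaffold gene, was mostly a gene of glia and dividing cells in these libraries. Its whole-library D1Tom levels were 8.74 CPM (control 1), 6.09 CPM (control 2), 5.73 CPM (cKO 1) and 3.84 CPM (cKO 2). Both cKO libraries were below both controls, control 2 only slightly above cKO 1, with a log2 fold change of -0.57 (SE 0.28, edgeR unadjusted p = 0.0863, adjusted p = 0.998). Within batches the log2 ratio of the CPM was -0.609 for the first pair and -0.664 for the second.

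Of the 811 Disc1 counts of the D1Tom sort, 35.5% came from astrocyte-like cells, 16.5% from oligodendrocyte precursor-like cells, 12.1% from dividing-like cells and 10.4% from endothelial-like cells. Its level was highest in microglia-like cells, with control levels of 25.4 and 19.3 CPM and cKO levels of 13.8 and 12.2 CPM, from 3 to 8 counts per library. Astrocyte-like cells held 22.8 CPM (control 1), 12.1 CPM (control 2), 17.8 CPM (cKO 1) and 5.99 CPM (cKO 2). These values split by replicate number and not by genotype, with a log2 fold change of -0.55 (SE 0.47, edgeR unadjusted p = 0.272, adjusted p = 1.00). Upper layer-like neurons held only 0.839 to 2.49 CPM. The highest neuron-like type was the CGE interneuron-like class, with control levels of 3.43 and 9 CPM and cKO levels of 2.02 and 0 CPM, from at most 5 counts per library. With cells assigned one by one, neuroblast cells led among neuron types of at least 30 cells in each library. Their control mean was 8.07 CPM. Disc1 had enough counts for a test in 3 of the 14 fitted types, none of them neuron-like, and passed in 0. With the controls' mean mix of cell types it had control levels of 8.22 and 5.87 CPM and cKO levels of 6.69 and 3.53 CPM, and the groups overlapped.

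Plaur, the urokinase receptor gene, was rare. The D1Tom libraries held 74 (control 1), 87 (control 2), 32 (cKO 1) and 36 (cKO 2) counts of it, which is 2.03, 2.42, 1.09 and 1.32 CPM. Again both controls were well above both cKO libraries, and the log2 fold change of -0.82 (SE 0.39, edgeR unadjusted p = 0.0818, adjusted p = 0.998) did not pass the test. The log2 ratio of the CPM was -0.907 within the first batch and -0.876 within the second. Leaving out 1 library at a time moved the fitted value between -1.08 and -0.59.

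The Plaur counts came from few cell types. Endothelial-like cells gave 38.0% of the 229 counts, with control levels of 27.4 and 12.0 CPM and cKO levels of 12.6 and 11.3 CPM. Oligodendrocyte-like cells gave 11.8%, with control levels of 38.8 and 21.0 CPM and cKO levels of 14.9 and 6.75 CPM, from 3 to 10 counts per library. The unnamed cluster with Trhr and Tshz2 among its leading genes gave 12.7%, with control levels of 14.6 and 10.1 CPM and cKO levels of 4.99 and 5.82 CPM, from 2 to 17 counts. That cluster was counted as not neuron-like, although 4 layer 6 corticothalamic markers were at 2-fold or more in it. It stayed unnamed because other lists had more markers among its leading genes. Among the types named neuron-like the layer 6b or subplate-like cells were highest, with control levels of 7.49 and 8.07 CPM and cKO levels of 0 and 4.70 CPM. Layer 6 corticothalamic-like cells followed at 4.21 and 6.51 against 4.61 and 0. Both cKO libraries were lower than both controls in oligodendrocyte-like cells, in the unnamed cluster and in layer 6b or subplate-like cells. Those types had under 30 cells in at least 1 library and were not fitted. The share of all genes with this arrangement in them was not computed. Layer 6b or subplate-like cells numbered 16 and 36 in the controls and 5 and 24 in cKO 1 and cKO 2. The 0 CPM of cKO 1 thus comes from 5 cells. Plaur had too few counts for a test in any of the 14 fitted types. The 6 endothelial markers, none at 0, summed to 112 CPM in control 1 against 65.1 in cKO 1, and to 470 in control 2 against 241 in cKO 2. Within both batches they were thus lower in cKO, as Plaur was, and their part in the Plaur difference was not tested. With the controls' mean mix of cell types Plaur had control levels of 3.15 and 1.82 CPM and cKO levels of 1.6 and 1.49 CPM, with a log2 ratio of -0.69 in place of -0.89.

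Srpx2, whose product binds PLAUR, had 8 counts among the D1Tom cells: none in either control library, 3 in cKO 1 and 5 in cKO 2. These are 0, 0, 0.10 and 0.18 CPM, and too few for the test. The 8 counts lay in 7 cells: 3 endothelial-like cells with 1 count each, 1 microglia-like cell with 2, and 1 cell each of the MGE interneuron-like, layer 6b or subplate-like and upper layer-like classes. By library, a count was found in 0 of 3206 cells (control 1, which allows a share of up to 0.0936%), 0 of 2395 (control 2, up to 0.125%), 2 of 2812 (cKO 1) and 5 of 3081 (cKO 2). These limits cover counting error and cells with a count, not cells that express the gene, and cells are not replicates of a genotype. The levels are at the limit of detection, so no fold change is given.

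Across the 14 fitted D1Tom types 58 tests of single genes of the list were made, and 0 passed at an adjusted p under 0.05, against 0.00355% of all tests. At an unadjusted edgeR p under 0.05 the count was also 0, against 2.59% of all tests of genes in these types. These tests left out the replicate number. With it as a block, genes of the list came under that unadjusted edgeR p in some types. They were 2 in Cajal-Retzius-like, 2 in neuroblast-like, 2 in upper layer-like and 1 in MGE interneuron-like cells. Over all genes the counts there were 638 of 8740, 1429 of 10424, 1656 of 11558 and 622 of 8629. None of the listed genes passed adjustment with the block. DESeq2 likewise called none of the 7 in any type after adjustment, against 0.0249% of its tests.

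In GTE the levels were lower and the libraries more uneven. Among the 6 genes listed there, 5 could be tested, 0 passed at an adjusted p under 0.05, against 0.0332% of 12042 genes, and 2 had an unadjusted edgeR p under 0.05, against 5.22%. Mef2c and Met were lower in both cKO libraries than in both controls, an arrangement seen in 6.67% of genes, and Disc1 was higher, as were 19.6% of genes.

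Met was at 15.3 CPM (GTE control 1), 24 CPM (control 2), 3.94 CPM (cKO 1) and 8.13 CPM (cKO 2). The groups did not overlap, and the log2 fold change was -1.92 (SE 0.58, edgeR unadjusted p = 0.00111, adjusted p = 0.535). It was -1.24 without cKO 1, the library that stood apart. Crossing the replicate numbers as a block, chosen after seeing the data, changed the call (-2.09, edgeR adjusted p = 0.0296), while the labelled numbers as a block did not (-2.11, edgeR adjusted p = 1.00). At the controls' mean mix of cell types Met was at 14.8 and 23.0 CPM for control against 3.83 and 8.39 CPM for cKO, a log2 ratio of -1.63 in place of -1.70. The largest share of its 276 counts, 41.3%, came from an unnamed cluster with Hs3st2 and Prdm8 among its leading genes, which held 21.9 and 35 CPM for control against 11.6 and 13.9 CPM for cKO (log2 -1.28, SE 0.71, edgeR adjusted p = 1.00).

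Mef2c was at 633 CPM (GTE control 1), 775 CPM (control 2), 261 CPM (cKO 1) and 519 CPM (cKO 2). The log2 fold change was -1.08 (SE 0.81, edgeR unadjusted p = 0.181, adjusted p = 0.984), and without cKO 1 it was -0.44. It was below 0 in 7 of 7 fitted GTE types and passed in 0, where 0.012% of all tests passed. These types too come from the same 4 libraries, and the share of genes below 0 in all of them was not computed. The general excitatory markers of GTE summed to 267 and 416 CPM for control and 126 and 273 CPM for cKO. At the controls' mean mix Mef2c was at 606 and 779 CPM for control against 308 and 540 CPM for cKO, so the groups stayed apart, with a log2 ratio of -0.71 in place of -0.85. Glia-like cells had the same order, as oligodendrocyte precursor-like cells with control levels of 302 and 488 CPM and cKO levels of 111 and 264 CPM (log2 -1.17, SE 0.49, edgeR unadjusted p = 0.0210, adjusted p = 1.00), where 2.58% of genes had an unadjusted p under 0.05. Dividing-like cells gave -1.30 (SE 0.61, edgeR unadjusted p = 0.0482, adjusted p = 0.923), where 4.86% of genes did. Among oligodendrocyte precursor-like cells 658 of the 7517 genes tested had both cKO libraries below both controls. The part of free RNA in the glia-like level was not tested.

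Disc1 went the other way in GTE, with 2 and 8 counts in control 1 and control 2 and 38 and 19 counts in cKO 1 and cKO 2, or 0.328, 1.64, 7.49 and 3.36 CPM. The log2 fold change was 2.08 (SE 0.85, edgeR unadjusted p = 0.0154, adjusted p = 0.848). Astrocyte-like cells gave 59.7% of its 67 counts, with control levels of 5.07 and 6.14 CPM and cKO levels of 12.7 and 16.8 CPM (log2 1.23, SE 0.91, edgeR adjusted p = 0.999). Astrocyte-like cells gave 6.47 and 16.7% of the counts in the controls against 31.2 and 13.7% in the cKO libraries. At the controls' mean mix Disc1 stayed apart, at 0.628 and 1.27 CPM for control against 6.82 and 2.95 CPM for cKO, a log2 ratio of 2.36 in place of 2.46. Cntnap2 and Vldlr overlapped between the GTE groups, at 35.6 and 50.6 CPM against 50.3 and 35.9 for Cntnap2 and at 37.3 and 91.0 against 129 and 57.5 for Vldlr. Plaur had 5, 2, 9 and 0 counts, and 9 of those 16 lay in oligodendrocyte-like cells.

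The genotype difference was compared between the sorts in 1 model of all 8 libraries. None of the 6 genes passed at an adjusted p under 0.05, and the share over all 14026 genes was 0%. Disc1 had the largest term of the 6, 2.68 (SE 0.77, edgeR unadjusted p = 0.00580, adjusted p = 0.941), and 1 of the 6 genes was under an unadjusted p of 0.05 against 3.22% of all genes. For Met the term was -1.44 (SE 0.67, edgeR unadjusted p = 0.0553, adjusted p = 0.941).

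Genes whose products act with the 7 were listed by pathway and taken over all cells. In D1Tom 55 of 57 had enough counts, 0 passed after adjustment, and 1 had an unadjusted edgeR p under 0.05, against 2.21% of all genes. It was Cntn2, the contactin that binds CNTNAP2, with control levels of 35.3 and 27.8 CPM and cKO levels of 25.9 and 15.8 CPM (log2 -0.55, SE 0.21, edgeR unadjusted p = 0.0440, adjusted p = 0.998). The median log2 fold change of the 55 was 0.01. Of the 9 reelin pathway genes around Vldlr 3 lay below 0, and of the 10 Disc1 partners 8 did, between -0.27 and 0.15, against 51.5% of all genes below 0.

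In GTE 50 partners were tested and 0 passed after adjustment, against 0.0332% of all genes, while 5 were higher at an unadjusted edgeR p under 0.05, against 2.84%. Named after their values were seen, they were Adamts4 (log2 2.05), a protease reported to bind SRPX2, C1qa (1.86), C1qb (1.6) and C1qc (1.5), the chains of complement C1q, and Reln (1.19), the ligand of VLDLR, with edgeR adjusted p of 0.745, 0.532, 0.695, 0.745 and 0.896. The C1q genes are also markers of microglia, and the 8 microglia markers summed to 46.9 and 100 CPM for control and 470 and 115 CPM for cKO, with none at 0. Reln also marks Cajal-Retzius cells, whose 8 markers summed to 18.2 and 50.4 CPM for control and 99.4 and 81.5 CPM for cKO. Adamts4 had 4 and 10 counts in the controls, 69 in cKO 1 and 14 in cKO 2. The 6 oligodendrocyte markers summed to 24.5 and 115 CPM for control, 835 CPM for cKO 1 and 53.4 CPM for cKO 2. The part of these cell types in the differences was not tested.

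Genes with the most similar profile over the 14 fitted D1Tom types were named from log2(CPM + 1) of the mean of the 2 controls, among 11442 genes of at least 10 CPM in some type. For Mef2c they were Camkk2 (Pearson r = 0.968), Dok4 (0.952) and Rras2 (0.949), and for Met they were Drc1 (0.928), Arpc5 (0.916) and Sidt1 (0.914). For Cntnap2 they were Idh3b (0.902), Reln (0.887) and Fam65b (0.880), and the same correlations over the cKO means were 0.826, 0.926 and 0.803. For Disc1 they were Epb41l5 (0.975), Hadha (0.941) and Pou2f1 (0.923), which came to 0.785, 0.758 and 0.591 over the cKO means. For Vldlr they were Tyw1 (0.890), Ifrd1 (0.873) and Pfas (0.868), with 0.433, 0.762 and 0.604 over the cKO means. The 14 points of each correlation come from the same libraries, so it only describes them.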

How the data were processed

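Single-cell RNA sequencing libraries (10x Chromium Single Cell 3′ v2) were grouped from the labels. The authors deposited UMI counts, not normalized, as 1 table (genes by cells) per sort. The submitters' processing notes name Cell Ranger 2.1.1, UMI-tools 0.5.4, STAR 2.5.2b and featureCounts with Subread 1.6.2, and the builds mm10 and GRCm38.p6, without saying whether counting used the strand. The counts do not behave like plain molecules (values of 2 were 0.307 to 1.69 times as frequent as values of 1), so no counting intervals are given for sums. Total counts per library were 27323298 to 36379194 in D1Tom and 4878370 to 6092396 in GTE. Gene positions come from GENCODE M21 and promoters from RefSeq (both GRCm38), matched by symbol for all 7 genes.

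The genes, partner lists and markers were chosen with earlier results of these data known. Clustering, separately for D1Tom and GTE, took cells of 500 or more counts and used scanpy 1.11.5 (2000 variable genes standardised within libraries, 30 components, 20 neighbours, Leiden resolution 1), without the 7 genes, Foxp2, and sex-linked, mitochondrial, ribosomal, haemoglobin and dissociation genes. Clusters matching several specific neuron lists were split again at resolution 0.5. Names ending in "-like" needed at least 3 markers (4 for general lists) at 2-fold or more and 50 cells. No other list could hold more markers among the 10 leading genes of the cluster. This procedure was settled after clusters had been seen, because layer 6 corticothalamic and layer 6b cells first shared a cluster, and before the 7 genes were read by type. Doublet scores marked 0 to 5 cells per library, so the caller did not work and all cells were kept.

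Sums of counts by library, for all cells together and for each type with at least 30 cells in each library, were tested with edgeR 4.0.16 in R 4.3.3 (quasi-likelihood test, TMM scaling, filterByExpr). DESeq2 1.42.0 was an alternative. Labels tie D1Tom replicate numbers to a shared preparation day, and same-numbered D1Tom libraries deviated together (correlation 0.532 over 11141 genes), so these numbers pair the libraries. For GTE the labels repeat the D1Tom text, so its batches are unknown. On simulated data with the observed spread, the test recovered 92.7% of 8-fold and 70.7% of 2.8-fold changes in D1Tom. In GTE it recovered 85.6 and 11.2%. False calls numbered 10 in D1Tom and 1 in GTE. Smaller changes, batches, mixes of cell types and sums within types were not simulated. Recovery at the size of the D1Tom values of the listed genes (-0.82 to 0.04) is therefore unknown. The rule for named results took, for each gene, its highest cell type of at least 50 cells by control mean, its highest neuron-like type and the type with its smallest p, partner genes at an unadjusted p under 0.05, and the 3 genes with the most similar profile. Other types are named for their share of a gene's counts.

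Alternatives were DESeq2, no filter on low counts, the replicate block, each library left out in turn, neuron-like cells only, cells assigned one by one from their markers, resolution 2, the highest doublet scores left out, and thinning to 500 or 2000 counts. Assignment one by one needed a count of at least 3 markers of a specific neuron list, and more than of any other such list. It took any cell of 500 or more counts and compared no glial list. The crossed GTE pairing and the values at the controls' mean mix of cell types were chosen after seeing the data.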

Additional observations from a re-analysis of the deposited data

Results flagged for a closer look

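The genotype difference of Disc1, the scaffold gene, pointed opposite ways in the sorts. Both cKO libraries were lower than both controls in D1Tom, at 5.73 and 3.84 CPM against 8.74 and 6.09, and both were higher in GTE, at 7.49 and 3.36 against 0.328 and 1.64. The difference between the sorts was 2.68 on the log2 scale (SE 0.77) and had the same sign with any 1 library left out, between 2.07 and 3.91. It did not pass after adjustment over all genes (edgeR unadjusted p = 0.00580, adjusted p = 0.941). The GTE side rests on 67 counts, 38 of them in cKO 1, and sort, sex and reporter differ together.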

How the results depend on the processing

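Leaving out 1 library at a time kept the direction and the side of the threshold of 121 of 134 values and turned 13. The turned values lay near 0: Cntnap2 in D1Tom ranged from -0.08 to 0.15, Vldlr from -0.05 to 0.08 in D1Tom and from -0.25 to 0.67 in GTE, Mef2c in upper layer-like cells from -0.23 to 0.07, and Vldlr in CGE interneuron-like cells from -0.31 to 0.00. Wider ranges were those of Foxp2 in GTE (-1.85 to 0.08), Disc1 in D1Tom astrocyte-like cells (-1.49 to 0.01), and the sort interaction of Vldlr (-0.22 to 0.59) and Plaur (-6.54 to 1.58, the first without GTE cKO 1).

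Under other settings 136 of 145 values were classed as unchanged, 6 turned, and 3 changed call or moved. Values at the controls' mean mix have no test. They were classed as unchanged where they kept the sign and moved by less than the pooled SD of log2 CPM between libraries. With the controls' mean mix of types Cntnap2 in D1Tom was -0.01, Met 0.14 and Foxp2 in GTE 0.35. Among neuron-like cells only, Vldlr in D1Tom was -0.11, and with cells assigned one by one Met was -0.10 and Vldlr -0.01 in upper layer-like cells. The analysis of neuron-like cells only was not run in GTE, which had 118 of them.

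With the replicate number as a block, 0 of the 7 genes were called in either sort, over all cells or within types. The pairing was crossed in GTE after its same-numbered libraries deviated apart (correlation -0.374), and that block called 1 of the 7, Met (-2.09, edgeR adjusted p = 0.0296), among 24 genes. Leaving out a library within GTE types called 0 to 1 of the 7, Cntnap2 in dividing-like cells without control 1 (-3.09) and in unnamed cluster 2 without cKO 2 (-7.66).

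Counts of all genes called moved more. Over all D1Tom cells they were 0 with edgeR, 25 with DESeq2, 1 with the replicate block and 0 to 6 leaving out a library. Within D1Tom types they were 5, 51 with DESeq2, 265 without the filter, 543 with the block, 0 without the highest doublet scores and 157 to 1579 leaving out a library. Over all GTE cells they were 4, 2 with DESeq2, 18 without the filter, 0 with the block and 1 to 27 leaving out a library. Within GTE types they were 5, 1 with DESeq2, 23 without the filter, 0 with the block and 15 to 985 leaving out a library. For the interaction they were 0, and 5 with DESeq2. The cause of these moves was not tested. Genes of the 7 with a smaller share of positive cells in both cKO libraries of D1Tom than in both controls were counted. There were 0 at 1000 counts per cell, 2 at 500, 3 at 2000 and 2 unthinned. The share of all genes with that arrangement was not computed, so these numbers have no background to be set against.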
